A study of Caenorhabditis elegans with 54 samples.

Results

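Dauer larvae of Caenorhabditis elegans that had been arrested for 30 days (D30) were compared with dauers arrested for 15 days (D15), the latest interval of diapause that the study sampled. All 6 libraries came from daf-2(e1370) mutants, which form dauers constitutively at the restrictive temperature. The animals were collected as whole worms from plates with OP50 bacteria, at 0 h of exit and with no UV treatment, with 3 biological replicates per day. A gene was kept if 3 or more of the 6 libraries held 10 or more counts of it, which left 12482 of the 19909 genes in the table. The full series holds 54 samples. Because every library carried the daf-2 mutation, no wild-type dauer was part of this comparison. Each library was a pool of whole animals, so that fewer cells of a type and less RNA per cell cannot be told apart. The labels give no batch, and day of arrest cannot be told apart from differences in plates or handling between the days.

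Dauer is a non-feeding diapause stage that larvae enter under harsh conditions. Dauers live on stored fat and carbohydrate, use the glyoxylate shunt and gluconeogenesis to make sugar from fat, and wear a specialised cuticle. Reduced signalling through DAF-2, the insulin/IGF-1 receptor, favours dauer entry and releases the transcription factor DAF-16/FOXO, whose known targets include genes for antioxidant enzymes and small heat shock proteins.

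The libraries held 8799925 to 9119136 estimated counts on day 15 and 7726436 to 10557977 on day 30. Log2 levels of libraries of the same day correlated across genes with r of 0.991 to 0.993, and those of different days with r of 0.897 to 0.904. The first principal component held 89.1% of the variance and separated the days. The 10 most abundant genes took 9.52% to 9.85% of the counts on day 15 and 11.6% to 11.7% on day 30. In same-day pairs of libraries, the variance of counts was 1.45 to 3.53 times that of sampling noise alone. This ratio does not tell separate pools of animals from repeat preparations of the same pool.

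In total, 3989 genes were higher on day 30 and 3997 were lower at an adjusted p below 0.05 (edgeR quasi-likelihood test). These were 32.0% of the genes tested in each direction, or 64.0% together, and counts of gene groups below are read against these shares. At least 2-fold changes were found for 1024 genes that rose (8.20%) and 1512 genes that fell (12.1%). Changes of 8-fold or more were counted for 173 genes that rose and 235 that fell. The libraries of the days did not overlap for 8417 genes (67.4%). The median log2 change of all genes was 0.0039. Levels are given as CPM, counts scaled to the size of the library. The transcript of daf-2 itself measured 703, 719 and 677 CPM in the D15 libraries and 686, 668 and 679 CPM in the D30 libraries, and the days overlapped. Its log2 change was -0.04 ± 0.04 (SE, adjusted p = 0.44); the e1370 allele is a point mutation, so this level does not check the labels.

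**Figure D1:**
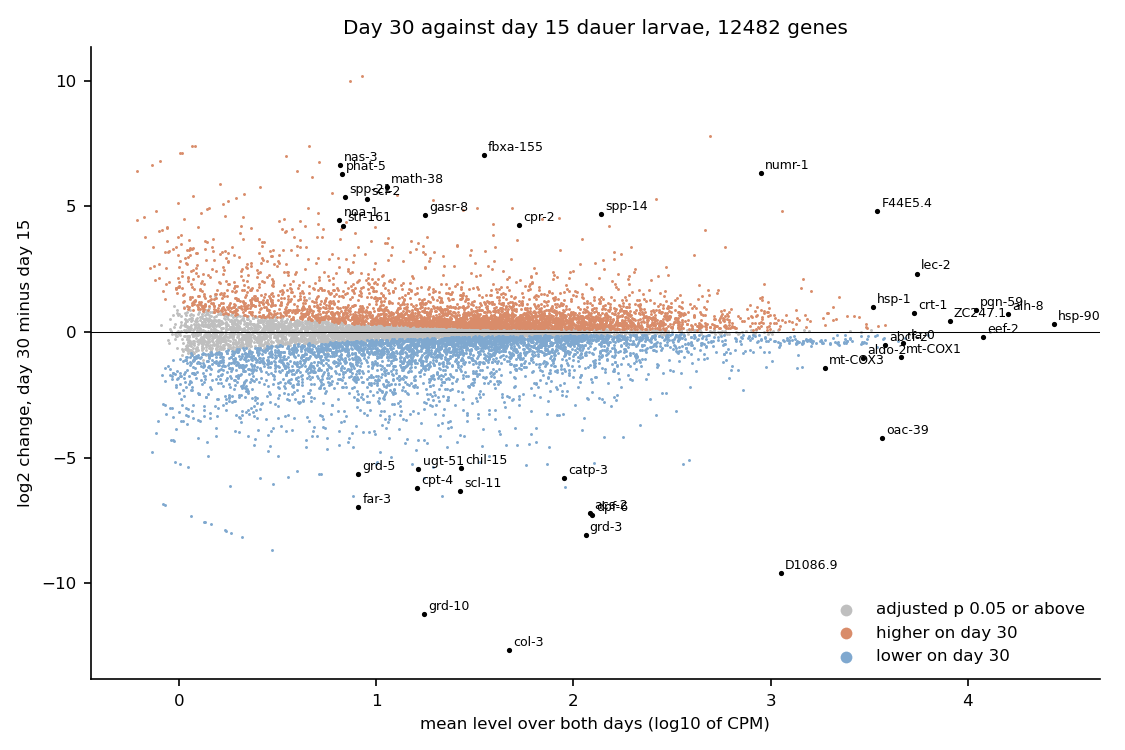
Log2 change between the days against the mean level (log10 of CPM) for each of the 12482 genes, with genes of the largest changes in ratio or in CPM named. Orange points were higher on day 30, blue points lower and grey points did not pass the test; the fitted values of col-3 and grd-10, which had no count on day 30, depend on the prior count of the fit.

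The dauer label was checked against its markers. The dauer-stage cuticle collagens col-2 and col-40 were abundant on day 1, at 12100.3 ± 717 and 11418 ± 236 CPM. On both late days they lay at 0.555 and 1.30 CPM and at 1.75 and 0.0688 CPM on days 15 and 30, so these defining transcripts were nearly absent from the groups compared. Of the other dauer markers, hsp-12.6, a small heat shock protein gene, measured 870.4, 879 and 899.8 CPM in the D15 libraries and 754, 708 and 744 CPM in the D30 libraries and had a log2 change of -0.25 ± 0.04 (SE, adjusted p = 5.9e-06). The LEA-protein gene lea-1, linked to desiccation tolerance, went from 2497 ± 131 to 1823 ± 42.7 CPM. Of the 16 genes tested in a list of dauer-state genes, 3 rose and 12 fell, with a median log2 change of -1.01. Of 17 molting genes tested, 3 rose and 9 fell, and their summed level was 3739 to 4104 CPM in the D15 libraries and 3634 to 3662 CPM in the D30 libraries. Most of that sum was lrp-1, an endocytic receptor gene named here after its values were seen, with 3169 ± 199.6 CPM on day 15 and 3321 ± 6.39 CPM on day 30 and no call. The protease gene bli-4 went from 300.3 ± 8.05 to 143 ± 6.20 CPM, whereas mlt-10, too low to be tested, lay at 0.237 and 0.0938 CPM on days 15 and 30.

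Among named genes with a mean count of at least 50, the largest rises were those of fbxa-155 (an F-box gene, log2 change 7.05), nas-3 (an astacin protease), numr-1, phat-5, math-38, spp-21, scl-2, spp-14, gasr-8, noa-1, cpr-2 and str-161, a chemoreceptor gene. The most abundant of them on day 30 was numr-1 (chromosome III, 7364385 to 7365230, forward strand, in WBcel235), which encodes a nuclear protein induced by metals, with 20.9, 23.0 and 21.9 CPM in the D15 libraries and 1688, 1959 and 1632 CPM in the D30 libraries. Every D30 library was far above every D15 library, and the log2 change was 6.33 ± 0.07 (SE, adjusted p = 5.0e-26). Earlier levels were 35.1 ± 2.90 CPM on day 1 and 70.1 ± 5.48 CPM on day 4, so that numr-1 was low on all 3 earlier days. The listed gene numr-2 was not found in the table, and any sharing of reads between it and numr-1 was not tested. The saposin-like gene spp-14 measured 9.72, 9.76 and 11.3 CPM in the D15 libraries and 258, 262 and 279.9 CPM in the D30 libraries, with a log2 change of 4.71 ± 0.07 (SE, adjusted p = 8.7e-24). It had also been high on day 4, at 251 ± 21.8 CPM. The cathepsin B-like protease gene cpr-2 went from 5.32 ± 0.448 to 101 ± 1.18 CPM, after 319 ± 135 CPM on day 4. For nas-3, 3 counts in all were seen on day 15, a ratio of 110.1-fold with a 95% counting interval of 37.4 to 537.

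The largest falls included genes with no count left on day 30. The collagen gene col-3 (chromosome IV, 8824783 to 8826013, forward strand) measured 94.9, 97.8 and 90.5 CPM on day 15 and had no count on day 30, which is at least 833-fold lower when 3 counts over the D30 group are taken as the floor. The hedgehog-related gene grd-10 had 34.0, 32.6 and 38.0 CPM and then none, at least 308-fold lower. Its relative grd-3 measured 225, 229 and 235 CPM in the D15 libraries and 1.36, 0.703 and 0.409 CPM in the D30 libraries, a log2 change of -8.08 ± 0.12 (SE, adjusted p = 3.6e-24), and grd-5 had a log2 change of -5.65. The others were dpf-6, a dipeptidyl peptidase gene (log2 change -7.30), acs-2, far-3, scl-11, cpt-4, catp-3 (log2 change -5.81), ugt-51 and chil-15. For far-3, a fatty acid and retinol binding protein gene, 3 counts remained on day 30, a ratio of 142-fold with a counting interval of 48.3 to 692.

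In CPM, the largest gains were those of alh-8, lec-2, F44E5.4, pqn-59, hsp-90, crt-1, ZC247.1 and hsp-1. The galectin gene lec-2 measured 1869, 1849 and 1839 CPM in the D15 libraries and 9239, 9262 and 9099 CPM in the D30 libraries, with a log2 change of 2.32 ± 0.04 (SE, adjusted p = 1.0e-23). Its D15 libraries were close together and all D30 libraries lay well above them. The gene alh-8, for methylmalonate-semialdehyde dehydrogenase of valine breakdown, rose from 12152 ± 725 to 19945 ± 334 CPM, and pqn-59 from 7831 ± 466 to 14198 ± 274 CPM. The largest losses in CPM were those of oac-39, the mitochondrial COX1 and COX3, D1086.9, the aldolase gene aldo-2, the elongation factor gene eef-2, the ribosomal stalk protein gene rla-0 and the ABC-family gene abcf-2. The acyltransferase-family gene oac-39 measured 7032, 6559 and 7237 CPM in the D15 libraries and 398, 345 and 364 CPM in the D30 libraries (log2 change -4.22 ± 0.05 SE, adjusted p = 1.5e-25). It had been at 137 ± 12.1 CPM on day 1 and 488 ± 45.4 CPM on day 4, so day 15 was its highest day. D1086.9 measured 2313, 2054 and 2400.4 CPM in the D15 libraries and 2.29, 3.24 and 3.17 CPM in the D30 libraries, a log2 change of -9.60 ± 0.09 (SE, adjusted p = 1.3e-27).

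Chaperone genes were among the groups that rose. Small heat shock proteins hold unfolding proteins, and the HSP70 and HSP90 families refold them. The hsp-16.1 gene (WBGene00002017) measured 104, 113 and 94.7 CPM in the D15 libraries and 1007, 1114 and 1101 CPM in the D30 libraries, with a log2 change of 3.38 ± 0.06 (SE, adjusted p = 3.0e-23). Its paralog hsp-16.48 measured 90.03, 90.5 and 86.2 CPM in the D15 libraries and 688, 761 and 747 CPM in the D30 libraries (log2 change 3.05 ± 0.05 SE, adjusted p = 2.3e-23). All D30 libraries lay above all D15 libraries for both genes. Since some hsp-16 genes are near-identical copies that can share reads, their sum was also taken: 5 genes together rose from 764 ± 25.06 to 2404 ± 85.7 CPM. This rise was uneven. The log2 change of hsp-16.41 was 0.66. Apart from hsp-16.1 (WBGene00002017), hsp-16.48 and hsp-16.41, the rest of the sum was lower on day 30. The sum does not settle how reads were shared among the copies. Not every small heat shock gene rose: 5 of 11 were higher and 5 lower, among the latter hsp-12.3, with 27.2, 22.2 and 27.8 CPM in the D15 libraries and 8.66, 9.42 and 10.5 CPM in the D30 libraries (log2 change -1.42 ± 0.12 SE, adjusted p = 2.1e-10).

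The HSP70-family gene F44E5.4 (chromosome II, 11757107 to 11759311, reverse strand) measured 237, 318 and 164 CPM in the D15 libraries and 6256, 6913 and 7002 CPM in the D30 libraries, a log2 change of 4.82 ± 0.13 (SE, adjusted p = 1.7e-19). It lies beside a near-identical copy, F44E5.5, and the split of reads between them is uncertain. Their sum was 319 ± 92.3 CPM on day 15 and 8932 ± 684 CPM on day 30, against 246 ± 15.3 CPM on day 1 and 142 ± 12.29 CPM on day 4. Of 13 large chaperone genes, 10 rose and 0 fell (median log2 change 0.55). The endoplasmic reticulum HSP70 gene hsp-4, a reporter of the unfolded protein response, measured 65.2, 65.3 and 55.4 CPM in the D15 libraries and 339, 355 and 357 CPM in the D30 libraries (log2 change 2.51 ± 0.06 SE, adjusted p = 5.7e-21). The co-chaperone gene hsp-110 went from 258 ± 7.27 to 715 ± 26.2 CPM and the constitutive HSP70 gene hsp-1 from 2218 ± 68.9 to 4400.1 ± 110.2 CPM. The gene crt-1, for the calcium-binding chaperone calreticulin, rose by a log2 change of 0.75. The gene hsp-90, which was not among the 13 listed, rose by 0.33. All 8 subunits of the CCT chaperonin, which folds actin and tubulin, were higher, led by cct-1 (log2 change 0.93), with a median log2 change of 0.56.

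**Figure D2:**
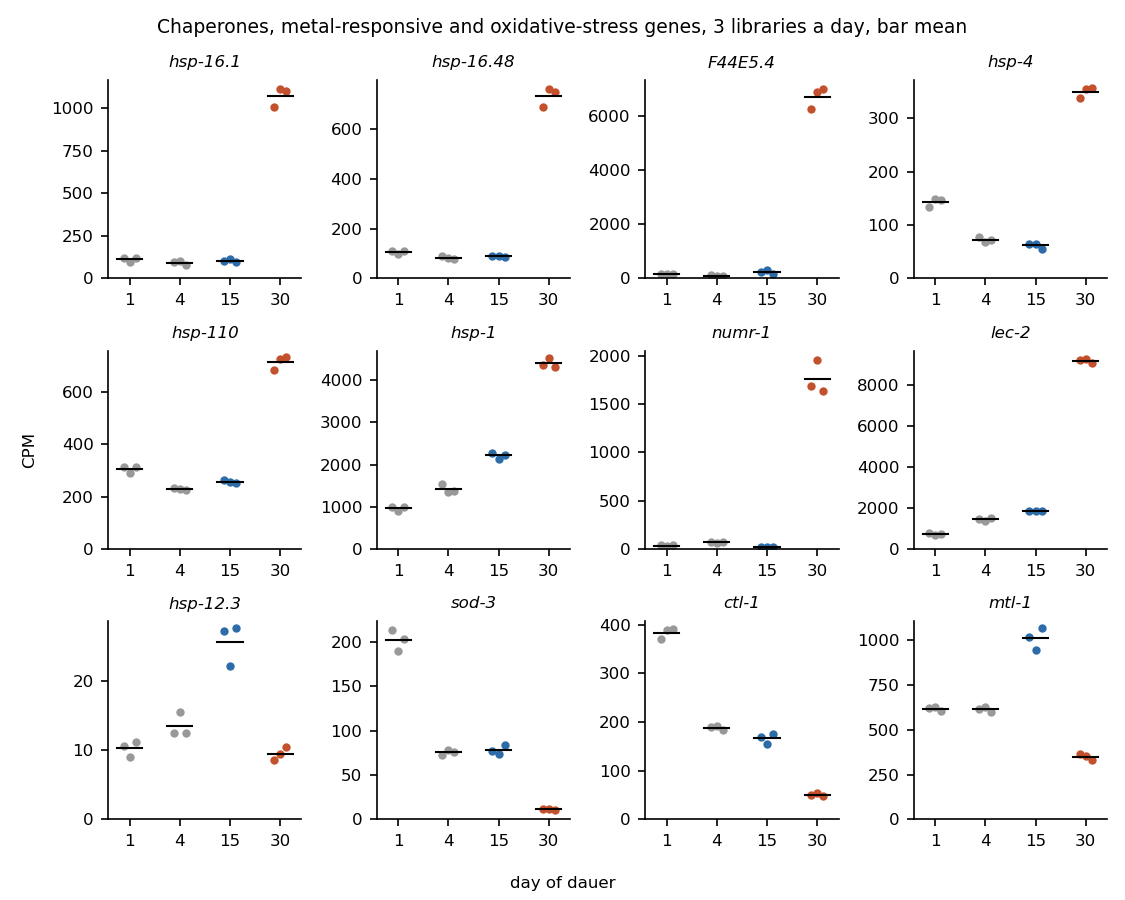
Level in CPM of 12 stress-related genes in each dauer library at 0 h of exit, by day of dauer (grey days 1 and 4, blue day 15, orange day 30; the bar is the mean of 3 libraries). The first 8 genes were highest on day 30, whereas hsp-12.3, sod-3, ctl-1 and mtl-1 were lower on day 30 than on day 15.

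Many genes of protein breakdown rose, and those of the proteasome and of autophagy did so mostly in steps below 2-fold. In the 20S core of the proteasome, 10 of 14 genes were higher and 0 lower, and in the 19S cap 14 of 18 and 0. Their median log2 changes were 0.25 and 0.30, and none was changed 2-fold. The core subunit gene pas-3 had the smallest p, with 413, 380.4 and 422 CPM in the D15 libraries and 721, 711 and 716 CPM in the D30 libraries (log2 change 0.83 ± 0.04 SE, adjusted p = 3.5e-14). In autophagy, 20 of 31 genes rose and 3 fell, with a median log2 change of 0.23 and 2 genes at least 2-fold higher. Of these 2, epg-2, a cargo adaptor, went from 61.7 ± 2.22 to 251 ± 8.55 CPM and atg-16.2 from 105 ± 6.00 to 327 ± 13.2 CPM. F-box genes, whose proteins pick targets for ubiquitin ligases, rose in 54 of 109 cases and fell in 16; 206 further members were too low to be tested. Aspartyl protease genes rose in 5 of 8 cases and fell in 2, and cathepsin B-like genes in 4 of 6 and 2. The summed level of the cathepsin B-like genes was lower on day 30, however. It was 624 to 652 CPM in the D15 libraries and 403 to 413 CPM in the D30 libraries. The gene asp-1 went from 52.7 ± 7.23 to 872 ± 39.3 CPM, while asp-4 went from 750.5 ± 23.7 to 407 ± 22.9 CPM and cpr-6 from 627 ± 16.8 to 294 ± 5.72 CPM. Earlier levels of asp-1 were 426 ± 40.8 CPM on day 1 and 657 ± 75.1 CPM on day 4, so day 15 was its lowest day.

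Antioxidant and detoxification genes mostly fell. Of 11 genes for superoxide dismutases, catalases and peroxiredoxins, 7 fell and 3 rose. The mitochondrial superoxide dismutase gene sod-3 measured 76.9, 73.2 and 84.1 CPM in the D15 libraries and 11.6, 11.4 and 10.9 CPM in the D30 libraries (log2 change -2.78 ± 0.08 SE, adjusted p = 1.5e-18). The catalase gene ctl-1 measured 169, 154 and 176 CPM in the D15 libraries and 50.9, 53.7 and 48.7 CPM in the D30 libraries (log2 change -1.70 ± 0.06 SE, adjusted p = 3.4e-17), and the metallothionein gene mtl-1 measured 1017, 947 and 1070.5 CPM in the D15 libraries and 366, 353 and 334 CPM in the D30 libraries (log2 change -1.52 ± 0.05 SE, adjusted p = 2.9e-18). In all 3, the days did not overlap. Of 8 metal-responsive genes, 2 rose, among them numr-1, and 4 fell.

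UDP-glucuronosyltransferases, which attach sugars to foreign and waste compounds, fell in 42 of 54 cases and rose in 3, and 31 were at least 2-fold lower. Their median log2 change was -1.31 and their summed level was 2276 to 2346 CPM in the D15 libraries and 831 to 888 CPM in the D30 libraries. The member with the smallest p, ugt-66, measured 139, 145 and 146 CPM in the D15 libraries and 3.55, 3.38 and 4.29 CPM in the D30 libraries (log2 change -5.23 ± 0.09 SE, adjusted p = 4.3e-23), while ugt-7 went the other way, from 2.93 ± 0.392 to 26.8 ± 1.25 CPM. Cytochrome P450 genes, which oxidise such compounds, fell in 35 of 53 cases and rose in 10; cyp-34A9 went from 276 ± 5.50 to 34.98 ± 3.25 CPM. Glutathione transferases fell in 19 of 34 cases and rose in 5; gst-4 went from 17.8 ± 1.14 to 2.60 ± 0.650 CPM.

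**Figure D3:**
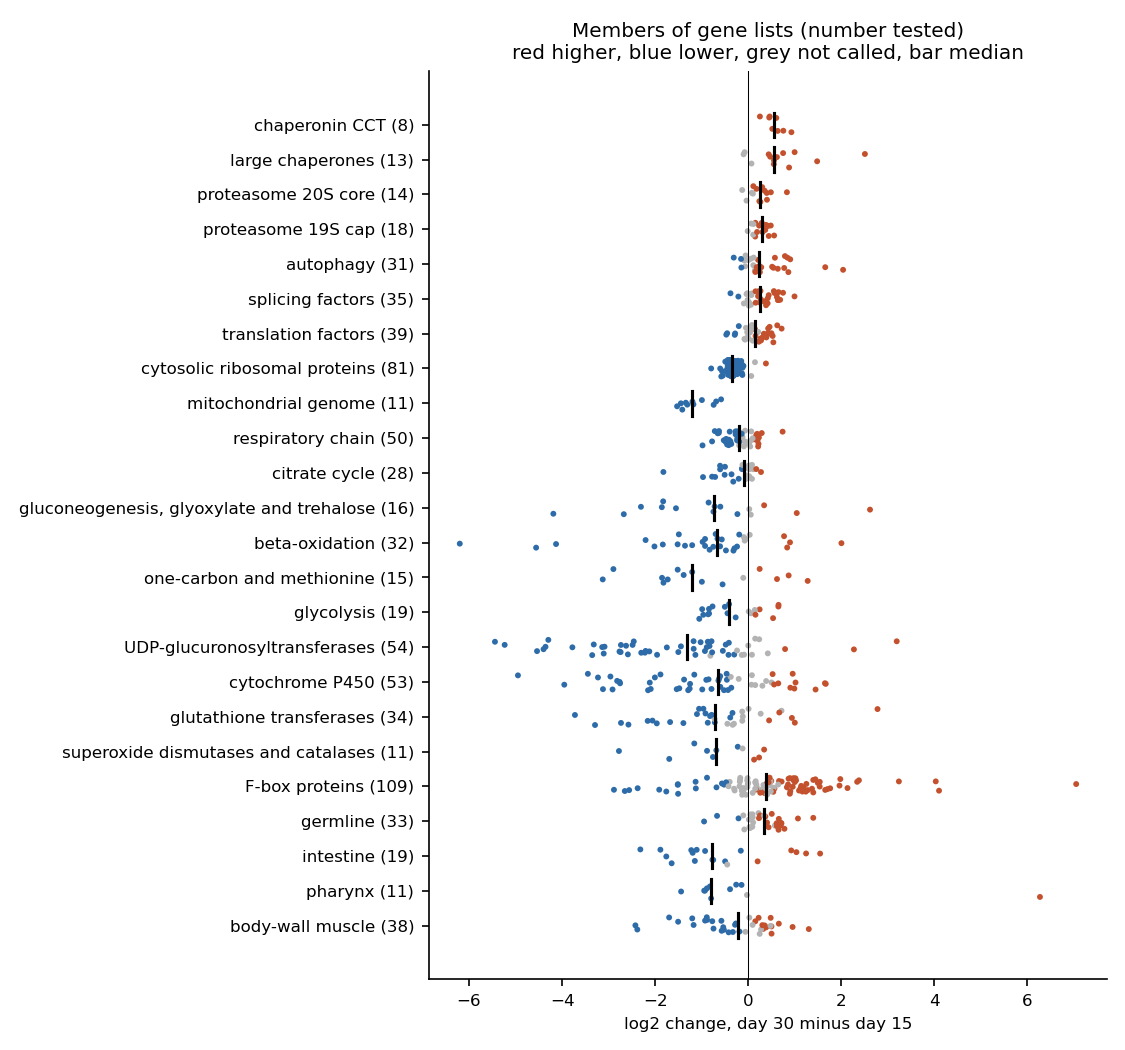
Log2 change between the days of each tested member of 24 gene lists (number tested in brackets), coloured by whether it was called higher (red), lower (blue) or neither (grey). The black bar is the median of the list; the CCT chaperonin lies to the right of 0 and the mitochondrial genome to the left.

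Transcripts for making sugar from fat were lower on day 30. The gene icl-1 (chromosome V, 724332 to 728004, reverse strand), for the glyoxylate shunt enzyme that makes it possible to build sugar from fat, measured 341, 359 and 321 CPM in the D15 libraries and 21.1, 18.3 and 16.2 CPM in the D30 libraries. The D30 libraries lay far below, with a log2 change of -4.19 ± 0.07 (SE, adjusted p = 3.9e-23). Phosphoenolpyruvate carboxykinase catalyses an early step of gluconeogenesis: its gene pck-2 measured 1209.6, 1166 and 1238 CPM in the D15 libraries and 250.0, 233 and 242 CPM in the D30 libraries (log2 change -2.31 ± 0.04 SE, adjusted p = 2.5e-22), and pck-1 went from 426 ± 19.6 to 66.0 ± 4.84 CPM. Of 16 genes of gluconeogenesis, the glyoxylate shunt and trehalose, 11 fell and 3 rose. Among the latter were the trehalase genes tre-5 (log2 change 2.62) and tre-3 (log2 change 1.04).

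Transcripts of fatty acid breakdown fell as well. Of 32 beta-oxidation genes, 24 were lower and 4 higher, with a median log2 change of -0.68. The acyl-CoA synthetase gene acs-2, which activates fatty acids, measured 241, 273 and 208 CPM in the D15 libraries and 1.46, 1.97 and 1.53 CPM in the D30 libraries (log2 change -7.19 ± 0.14 SE, adjusted p = 4.1e-22). The carnitine palmitoyltransferase-family gene cpt-4 measured 31.8, 31.2 and 32.3 CPM in the D15 libraries and 0.209, 0.422 and 0.613 CPM in the D30 libraries (log2 change -6.20 ± 0.20 SE, adjusted p = 3.8e-18). Both genes were close to absent on day 30, with no overlap between the days. The hydroxyacyl-CoA dehydrogenase gene hacd-1 went from 52.8 ± 2.26 to 2.97 ± 0.319 CPM. Of 9 fat lipase genes, 1 rose and 4 fell. The lysosomal lipase gene lipl-5 went from 93.7 ± 4.104 to 12.4 ± 0.845 CPM. Fatty acid synthesis and desaturation was split, with 8 of 20 genes higher and 8 lower. The stearoyl-CoA desaturase gene fat-6 measured 406, 374 and 403 CPM in the D15 libraries and 1428, 1519.6 and 1433 CPM in the D30 libraries (log2 change 1.90 ± 0.04 SE, adjusted p = 6.7e-21), and the elongase gene elo-6 went from 31.4 ± 4.19 to 2.50 ± 0.254 CPM.

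In central carbon metabolism, 11 of 19 glycolytic genes fell and 5 rose. The aldolase gene aldo-2 went from 3985 ± 240.1 to 1909 ± 44.6 CPM and the enolase gene enol-1 from 278 ± 9.58 to 141 ± 7.28 CPM, while gpd-3, for glyceraldehyde-3-phosphate dehydrogenase, went from 661 ± 23.2 to 1031 ± 23.4 CPM. In the citrate cycle, 13 of 28 genes fell and 2 rose, with a median log2 change of -0.09. Only aco-2 changed by at least 2-fold. The aconitase gene aco-2 measured 962, 943 and 974 CPM in the D15 libraries and 272, 275 and 262 CPM in the D30 libraries (log2 change -1.82 ± 0.04 SE, adjusted p = 4.9e-21). It had been at 918 ± 36.9 CPM on day 1 and 957 ± 20.7 CPM on day 4, close to its day 15 level.

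One-carbon and methionine genes mostly fell, and genes of amino acid breakdown changed in both directions. The methionine synthase gene metr-1 measured 588, 597 and 592 CPM in the D15 libraries and 68.7, 66.5 and 66.8 CPM in the D30 libraries (log2 change -3.13 ± 0.05 SE, adjusted p = 3.6e-24), and sams-1, which makes S-adenosylmethionine, went from 116 ± 7.56 to 32.7 ± 2.20 CPM. One-carbon and methionine genes fell in 10 of 15 cases and rose in 4. The arginase gene argn-1 (chromosome X, 5630023 to 5631825, forward strand), which splits arginine into urea and ornithine, measured 566, 531 and 576 CPM in the D15 libraries and 2406, 2371 and 2336 CPM in the D30 libraries (log2 change 2.10 ± 0.04 SE, adjusted p = 4.9e-22). The glutamate dehydrogenase gene gdh-1 measured 627, 671 and 669.7 CPM in the D15 libraries and 1951, 2292 and 2319 CPM in the D30 libraries (log2 change 1.75 ± 0.05 SE, adjusted p = 2.0e-18), and the branched-chain aminotransferase gene bcat-1 measured 92.3, 97.9 and 92.6 CPM in the D15 libraries and 440.4, 441 and 445 CPM in the D30 libraries (log2 change 2.24 ± 0.05 SE, adjusted p = 1.1e-21). The D30 libraries lay above the D15 libraries for each of these amino acid genes. Not all amino acid genes rose: of 11 genes of arginine, ornithine and proline breakdown, 6 rose and 5 fell, among them alh-13 (log2 change -3.27). Of 20 genes of branched-chain amino acid and propionate breakdown, 4 rose and 10 fell, with a median log2 change of -0.22. Their summed level was 13380.1 to 14842 CPM in the D15 libraries and 21472 to 22086 CPM in the D30 libraries, most of it alh-8. The propionate genes acdh-1, of the propionate shunt, and pcca-1 and pccb-1, of propionyl-CoA carboxylase, had log2 changes of -4.56, -1.25 and -1.24. The shunt gene acdh-1 measured 152, 133 and 149 CPM in the D15 libraries and 6.88, 4.92 and 6.13 CPM in the D30 libraries. It had been at 1.26 ± 0.454 CPM on day 1 and at 0 CPM on day 4, so day 15 was its highest day.

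**Figure D4:**
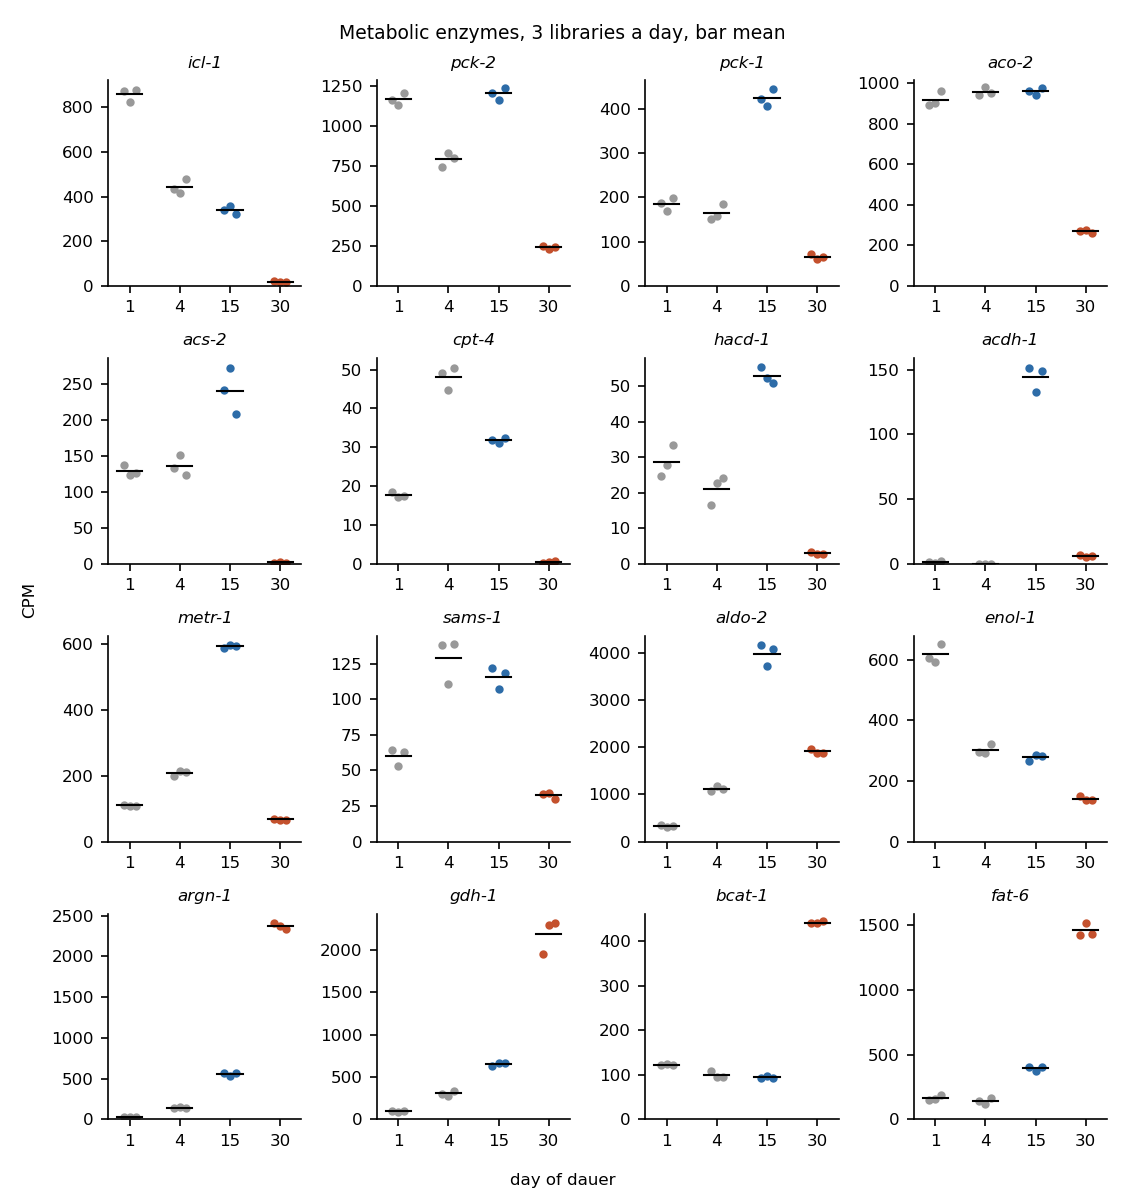
Level in CPM of 16 metabolic genes in each dauer library at 0 h of exit, by day of dauer, with the mean of 3 libraries as a bar. The first 12 genes were lower on day 30 than on day 15, and argn-1, gdh-1, bcat-1 and fat-6 were higher.

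Ribosomal protein genes fell by small and even steps. Of 81 cytosolic ribosomal protein genes, 78 were lower and 1 was higher, with a median log2 change of -0.35 and none changed 2-fold. Their summed level was 138817 to 152590.0 CPM in the D15 libraries and 112852 to 114527 CPM in the D30 libraries. The paralogs of RPL-11 diverged: rpl-11.2 measured 1273, 1180.0 and 1302 CPM in the D15 libraries and 731, 715 and 702 CPM in the D30 libraries (log2 change -0.80 ± 0.04 SE, adjusted p = 5.1e-14), and rpl-11.1 was the gene that rose, with 1048, 988 and 1068 CPM in the D15 libraries and 1329, 1369 and 1316 CPM in the D30 libraries (log2 change 0.38 ± 0.04 SE, adjusted p = 1.2e-08). Of 39 translation factor genes, 19 were higher and 5 lower, but their summed level was lower on day 30, at 38453 to 40764 CPM in the D15 libraries and 37717 to 38206 CPM in the D30 libraries. The abundant genes eef-2, iff-2 and eef-1B.1 fell, with log2 changes of -0.20, -0.47 and -0.45, while the subunits eif-2alpha, eif-2beta and eif-2gamma rose by 0.62, 0.72 and 0.53 in log2. Splicing factors rose in 22 of 35 cases and fell in 2, led by prp-3 (log2 change 0.99). Mitochondrial ribosomal proteins were divided, with 18 higher and 20 lower of 69.

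Transcripts of the mitochondrial genome, a group chosen after its values were seen, fell in all 11 genes tested of 12, with log2 changes from -0.58 to -1.53. Their summed level was 14857 to 15293 CPM in the D15 libraries and 6595 to 7037 CPM in the D30 libraries. The cytochrome c oxidase subunit gene COX1 measured 6167, 6264 and 6018 CPM in the D15 libraries and 3041, 2990.3 and 3161 CPM in the D30 libraries (log2 change -0.99 ± 0.04 SE, adjusted p = 8.7e-17), and COX3 measured 2756, 2820.5 and 2691 CPM in the D15 libraries and 1013, 956 and 1043 CPM in the D30 libraries (log2 change -1.45 ± 0.04 SE, adjusted p = 4.0e-19). Nuclear genes of the respiratory chain fell in 27 of 50 cases and rose in 11, with a median log2 change of -0.20 and none 2-fold. The ATP synthase subunit gene atp-2 went from 978 ± 11.6 to 591 ± 11.3 CPM.

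**Figure D5:**
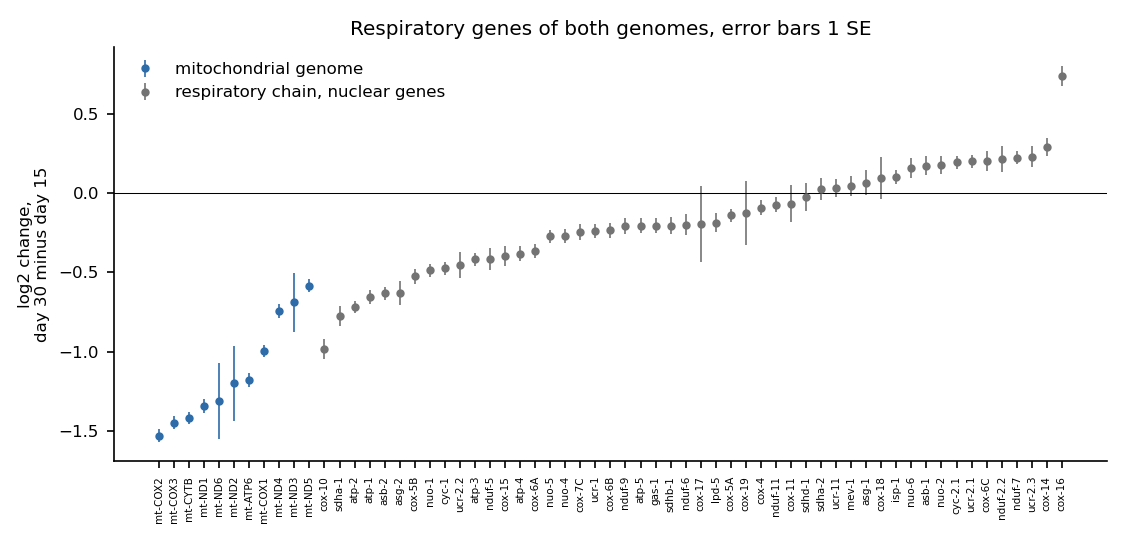
Log2 change between the days, with 1 SE of the fit, for genes of the mitochondrial genome (blue) and nuclear genes of the respiratory chain (grey), each sorted by size. All 11 mitochondrial genes lie below 0, and the nuclear genes lie on both sides of it.

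Tissue markers changed unequally. Of 11 pharynx genes, 9 fell and 1 rose. The pharyngeal myosin genes myo-1 and myo-2 went from 673 ± 15.3 to 385 ± 4.72 CPM and from 514 ± 30.5 to 276 ± 5.60 CPM. The exception was phat-5, with 0.243, 0 and 0.233 CPM in the D15 libraries and 12.4, 12.4 and 14.8 CPM in the D30 libraries. Intestinal genes fell in 13 of 19 cases and rose in 5: the intermediate filament gene ifb-2 went from 433 ± 24.7 to 137 ± 6.61 CPM and the gut actin gene act-5 from 30.1 ± 0.628 to 56.7 ± 0.725 CPM. Body-wall muscle genes fell in 20 of 38 cases and rose in 12. The major myosin heavy chain gene unc-54 measured 442, 590.1 and 458 CPM in the D15 libraries and 92.0, 88.8 and 94.3 CPM in the D30 libraries (log2 change -2.42 ± 0.08 SE, adjusted p = 7.4e-18), while the giant protein gene unc-89 went from 773 ± 59.6 to 1212 ± 33.6 CPM. Germline genes rose in 17 of 33 cases and fell in 3. Log2 changes were 0.70 for glp-4 and 0.61 for csr-1, but -0.67 for cgh-1 and -0.21 for mes-3. Their summed level was 1629.8 to 1716 CPM in the D15 libraries and 1960.2 to 2010.4 CPM in the D30 libraries. Vitellogenins, which mark the adult gut, summed to at most 16.9 CPM in any of the 6 libraries, and major sperm proteins to at most 6.05 CPM. Eggshell and embryo genes rose in 8 of 11 cases and fell in 1. They summed to 93.1 to 95.3 CPM in the D15 libraries and 152 to 162 CPM in the D30 libraries. The part of tissue composition in the other gene groups was not tested.

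Cuticle and signalling genes changed in both directions, and some groups lay near or below the shares of all genes. Numbered collagens fell in 24 of 48 cases and rose in 14, while 108 were too low to be tested. Hedgehog-related genes, which encode secreted proteins of the epidermis, fell in 11 of 16 cases, rose in 2 and summed to 337 to 357 CPM in the D15 libraries and 34.8 to 39.4 CPM in the D30 libraries. Most of the D15 sum was grd-3, at 225, 229 and 235 CPM, which measured at most 1.36 CPM in the D30 libraries. Patched-related genes fell in 11 of 21 cases and rose in 6; ptr-13 went from 208 ± 10.3 to 18.9 ± 0.962 CPM. In the insulin pathway, 4 of 16 genes rose and 7 fell. The PI3 kinase adaptor gene aap-1 measured 56.9, 51.8 and 55.7 CPM in the D15 libraries and 118, 118 and 119 CPM in the D30 libraries (log2 change 1.12 ± 0.06 SE, adjusted p = 1.8e-14), and the kinase gene pdk-1 went from 31.7 ± 2.98 to 14.5 ± 1.18 CPM. Of 22 insulin-like peptide genes, 8 rose (36.4%) and 7 fell (31.8%), near the shares of all genes. Among them, ins-20 measured 15.3, 17.8 and 15.62 CPM in the D15 libraries and 151, 167 and 148 CPM in the D30 libraries (log2 change 3.26 ± 0.07 SE, adjusted p = 6.9e-21). Of 19 AMPK and TOR genes, 8 rose and 4 fell. The catalytic AMPK subunit gene aak-1 went from 93.2 ± 5.51 to 205 ± 12.4 CPM, and the gamma subunit gene aakg-5 from 154 ± 4.61 to 60.4 ± 1.68 CPM. Nuclear hormone receptors were split near the shares of all genes, with 70 of 178 higher and 59 lower. Of 237 chemoreceptor genes tested, 48 rose (20.3%) and 71 fell (30.0%), both below the shares of all genes. Log2 changes of FMRFamide-like peptide genes lay between -0.35 and 0.79, with 5 of 30 higher and 12 lower. In the SCP family, 4 of 11 genes rose and 6 fell, with a median log2 change of -0.76. Its member scl-20 measured 11.2, 11.2 and 14.1 CPM in the D15 libraries and 34.5, 39.4 and 35.8 CPM in the D30 libraries (log2 change 1.59 ± 0.10 SE, adjusted p = 2.0e-12), while scl-12 went from 23.2 ± 0.775 to 0.681 ± 0.437 CPM.

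Genome maintenance genes are given beside the shares of 32.0% of all genes in each direction. Of 35 DNA replication genes, 12 rose (34.3%) and 3 fell (8.57%), and in nucleotide excision repair 7 of 18 and 4. Of 34 other repair genes, 13 rose (38.2%) and 3 fell, among them polh-1, for a translesion polymerase (log2 change -0.54). Among those that rose, lig-4, for the ligase of non-homologous end joining, measured 19.9, 22.6 and 18.7 CPM in the D15 libraries and 56.0, 54.2 and 56.4 CPM in the D30 libraries (log2 change 1.46 ± 0.08 SE, adjusted p = 7.9e-14), and cku-70 of the same pathway went from 52.5 ± 1.65 to 84.6 ± 1.68 CPM. On day 1, lig-4 had measured 49.2, 55.6 and 56.3 CPM, so day 15 was its lowest day. Of 46 histone genes, 14 rose and 25 fell, with a median log2 change of -0.43. The variant gene his-71 went from 245 ± 14.5 to 609 ± 11.96 CPM, while his-45, his-46 and his-59 had log2 changes of -1.25, -1.78 and -1.39. Many core histone genes have near-identical copies, and the split of reads among those is uncertain.

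Gene length was described because the study examined length-dependent expression. Genes that rose had a median length of 2465 bp from start to end and genes that fell 2896 bp. With the genes cut into 5 groups of near-equal number by length, 26.3% of the longest group (from 5586 bp) rose and 38.6% fell. In the shortest group (up to 1363 bp), 32.9% rose and 30.21% fell. Levels differed with length too, with a median of 42.5 CPM in the longest group and 12.9 CPM in the shortest, and their part in these shares was not tested.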

How the data were processed

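Whole dauer larvae of daf-2(e1370) were sequenced as bulk RNA. The authors trimmed reads with fastp, quantified them with Salmon against the WBPS15 mRNA transcriptome with a correction for GC content, and summed transcripts to genes with tximport. The deposited values are estimated counts per gene, which were rounded to whole numbers here. Day 30 was tested against day 15 with edgeR 4.0.16 (quasi-likelihood, TMM, two-sided) in R 4.3.3, on the 12482 genes for which 3 or more of the 6 libraries held 10 or more counts, with Benjamini-Hochberg adjustment over all of them at 0.05. Each SE was taken from the fitted log2 change and its F statistic. Levels are counts scaled to library size (CPM) with TMM over the 12 dauer libraries at 0 h, given as mean ± SD of 3 libraries. Members, lists and named genes were chosen with earlier results of these data known. Named genes were the 12 largest rises and falls in log2 (mean count of at least 50, no overlap), the 8 largest in CPM, and up to 3 and 2 members of each list by p in its main and other direction. Of the list entries, 13 were not found in the table by symbol, among them daf-21 in 2 lists. Gene positions are from WBcel235 (Ensembl 115). Mitochondrial gene names were taken from RefSeq by overlap of position. The fit was tested on simulated data. DESeq2 1.42.0 and limma 3.58.1 were alternatives. A planned count of promoter motifs was not run. Intervals and floors cover counting error only.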

Additional observations from a re-analysis of the deposited data

How the results depend on the processing

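The counts of genes called kept within 1.5 times under other size factors, library totals, filterByExpr, DESeq2, limma-voom, all 12 dauer libraries in 1 fit and an adjusted p below 0.01, with these exceptions among the settings run. With no filter on low counts, 1607 genes rose at least 2-fold in place of 1024. A test against a fold of 1.5 called 1362 genes higher and 1814 lower. Within the limit of 1.5 times, library totals in place of TMM gave 3655 higher and 4310 lower. Leaving out 1 library at a time gave 3689 to 3883 genes higher and 3751 to 3903 lower, with 1027 to 1060 and 1500 to 1540 past 2-fold. Libraries with the same replicate number did not deviate together, with correlations of 0.0062, -0.033 and 0.0020, so the numbers were not treated as pairs; with the replicate block, 3964 genes rose and 3972 fell. Of 338 tested genes of the naming rule and marker list, 332 kept their call in DESeq2, 338 with the block and 233 against a fold of 1.5. Mitochondrial ribosomal genes split 20 higher and 18 lower with all 12 libraries in 1 fit. The change of daf-2 was 0.0048 with all 12 libraries, still not called. No gene of the proteasome 19S cap, FMRFamide-like peptides or DNA replication passed the test against a fold of 1.5, and the insulin pathway kept 1 higher and 1 lower. Of the 4 vitellogenins that fell, 3 were not called with all 12 libraries. By the longest annotated transcript, the median length was 1433 bp for genes that rose and 1485 bp for genes that fell; for genes past 2-fold it was 2102 and 2318 bp from start to end. The depth of 7726436 counts or more per library limits calls among low genes, and 7427 genes were not tested.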

Other observations

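Families that the gene lists did not hold were counted from their symbols, after the values were seen, where at least 10 members were tested. Chitinase-like genes (chil) fell in 12 of 14 cases and rose in 0, with a median log2 change of -1.95 (edgeR quasi-likelihood test). Carboxylesterase-type genes (cest) fell in 16 of 22 cases and rose in 2. Genes of peroxisome assembly (prx) fell in 8 of 11 cases and rose in 0, and glycosylation genes (gly) fell in 12 of 17 cases and rose in 0. Genes of membrane traffic moved the other way: 21 of 31 vps genes rose and 3 fell, 13 of 20 rab genes rose and 0 fell, and 13 of 19 sec genes rose and 3 fell. Ubiquitin-conjugating enzyme genes (ubc) rose in 11 of 20 cases and fell in 1.

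By chromosome, the share of tested genes that fell was highest on V, at 36.8% of 2599 genes, and on X, at 34.3% of 1810, among the nuclear chromosomes. It was lowest on III and I, at 27.7% of 2013 and 27.7% of 2030 genes.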
